A study of Mus musculus with 2 samples.

Results

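The barcodes described here were progenitors from a mouse culture in which at least 2 UMIs came from 3 genes of the B-cell receptor and its control. *Ighm* encodes the constant region of the immunoglobulin μ heavy chain, *Cd79b* a signalling chain of the B-cell receptor, and *Ebf1* a transcription factor required for B-lineage specification. They were chosen by raw counts of UMIs, the molecular tags that stand for single captured transcripts. Barcodes were kept with no fewer than 1500 UMIs and 500 genes and with mitochondrial UMIs of at most 10%. A kept barcode was selected when *Lmo2* plus *Mef2c* gave at least 2 UMIs, *Cd3g* at most 1, *Ighm* plus *Ebf1* plus *Cd79b* at least 2, *Elane* plus *Ctsg* plus *Ms4a3* plus *S100a8* at most 2, and *Pf4* plus *Gp9* plus *Gp1bb* plus *Gata1* plus *Klf1* at most 1. This rule found 279 of 5888 kept barcodes, 130 of 1788 in library FL001 and 149 of 4100 in FL002, and they are called IEC progenitors after *Ighm*, *Ebf1* and *Cd79b*. Levels of the 15 rule genes describe the selection and are not results.

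Both libraries held wild-type CD1 cells taken from E13.5 fetal liver. TER-119+ erythroid cells were depleted, Sca-1+ cKit+ hematopoietic stem and progenitor cells were sorted, and these were cultured on plates coated with the Notch ligand DL4 at 10 µg/mL and the adhesion molecule VCAM-1 at 2.32 µg/mL. The study pooled freshly sorted and cultured cells, and which time points each library holds is not given in the sources used here, so library and culture time cannot be told apart. Each library is 1 sample, no test between groups was run, and intervals cover counting error only. The libraries held 16320118 and 22651783 UMIs, and the IEC progenitors 1253270 and 953783 of them, at a median of 9049 UMIs per barcode in FL001 and 6042 in FL002. In sentences with a pair of values, FL001 comes first.

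Lymphoid-primed progenitors are multipotent cells that keep *Flt3*, the receptor for the cytokine Flt3 ligand, and begin to transcribe lymphoid genes at a low level before a lineage is fixed. From this stage *Ebf1*, with *Pax5* after it, leads towards B cells, *Irf8* towards dendritic cells and monocytes, and Notch signals with *Tcf7* towards T cells. Transcripts of the μ constant region are known to appear before the heavy chain gene is rearranged, so *Ighm* UMIs alone do not make a B cell.

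The IEC progenitors were 7.27% of the kept barcodes in FL001 (95% exact binomial interval 6.11 to 8.57) and 3.63% in FL002 (3.08 to 4.25). Most were selected on *Ighm*, without *Ebf1*. *Ighm* had a UMI in 86.9% and 91.3% of them, *Cd79b* in 60.8% and 47.0% and *Ebf1* in 13.8% and 15.4%. *Ighm* was the only one of the 3 genes with a UMI in 44 and 68 barcodes, *Cd79b* in 16 and 11, and *Ebf1* in 0 and 0. The sum of the 3 genes had a median of 4 and 3, with highest values of 84 and 32. At the border of the rule, 40 and 60 barcodes had a sum of exactly 2, while 72 and 132 met every other condition with a sum of 1 and 168 and 368 with a sum of 0.

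The sum alone did not mark B-lineage cells in this culture. Among barcodes with at least 2 *Cd3g* UMIs, which stand for T-lineage cells, 8.52% and 6.09% also had a sum of at least 2. *Ighm* had a UMI in 18.0% and 18.8% of these *Cd3g* barcodes, at median depths of 7732 and 4396 UMIs. Droplets with 1 to 100 UMIs, which hold free RNA, carried *Ighm* at 62.8 and 79.2 CPM (counts of a gene scaled to the same total of UMIs in every group). In the IEC progenitors the *Ighm* level was 488 and 469 CPM, which the rule itself sets in part.

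Depth moved with the selection. The IEC progenitors had median depths of 9049 and 6042 UMIs, and the other progenitors, which also met the *Lmo2*, *Mef2c* and *Cd3g* conditions, had 7542 and 5511 (298 and 575 barcodes). When every barcode was thinned to 1500 UMIs before the rule was applied, 6 and 8 barcodes met it, of which 6 and 7 were IEC progenitors. Shares of barcodes are therefore also given after thinning for the genes that the account turns on. No IEC progenitor had a barcode sequence that was kept in both libraries, although 10 sequences were. *Xist* and a Y-linked gene were found together in 3.85% and 2.68% of them, against 3.58% and 2.56% of all kept barcodes, and 2 and 1 were among the 5% with the highest doublet scores.

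Of the markers named for lymphoid priming, *Flt3*, *Irf8*, *Il7r* and *Ccr9* had higher levels in the IEC progenitors than in the other progenitors in both libraries, while *Dntt* was not found. Only *Irf8* among them met the 2-fold rule given below. *Il7r* and *Ccr9* were under the minimum mean level of that rule and so were not tested. *Flt3* was at 94.95 CPM in FL001 (95% Poisson interval 78.7 to 114) and 125 CPM in FL002 (103 to 149), against 37.5 CPM (30.2 to 46.0) and 36.7 CPM (30.5 to 43.9) in the other progenitors. It had a UMI in 53.8% and 50.3% of the IEC progenitors, in 19.8% and 16.3% of the other progenitors and in 1.27% and 1.30% of the *Cd3g* barcodes. After thinning these shares were 16.9% and 18.8% in the IEC progenitors and 3.02% and 7.13% in the other progenitors, in the same order. *Il7r*, the interleukin 7 receptor, was at 28.7 CPM (20.1 to 39.8) and 39.8 CPM (28.2 to 54.7), against 4.49 and 3.95 CPM. The *Cd3g* barcodes carried *Il7r* at 35.5 and 24.8 CPM, so it did not set the IEC progenitors apart from T-lineage cells. *Ccr9*, a chemokine receptor of thymus-seeding cells, was found in 9 and 18 IEC progenitors, at 12.8 and 28.3 CPM against 1.22 and 1.82 CPM, and its annotated exons overlap those of *Gm17200*.

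*Dntt*, the terminal transferase that adds bases at gene segment joints and is known to be scarce in fetal lymphoid cells, gave 0 and 0 UMIs in the IEC progenitors. A count of 0 allows up to 2.39 and 3.15 CPM. *Ly6d*, a surface marker of B-biased lymphoid progenitors, gave 0 and 1 UMIs. Because *Ly6d* marks B-biased progenitors, its low count does not decide whether the barcodes were lymphoid-primed, and they are called by their rule. *Il7r* and *Ccr9* were found in a minority of them, but at such low levels many barcodes would give no UMI, so this does not decide the name.

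**Figure D1:**
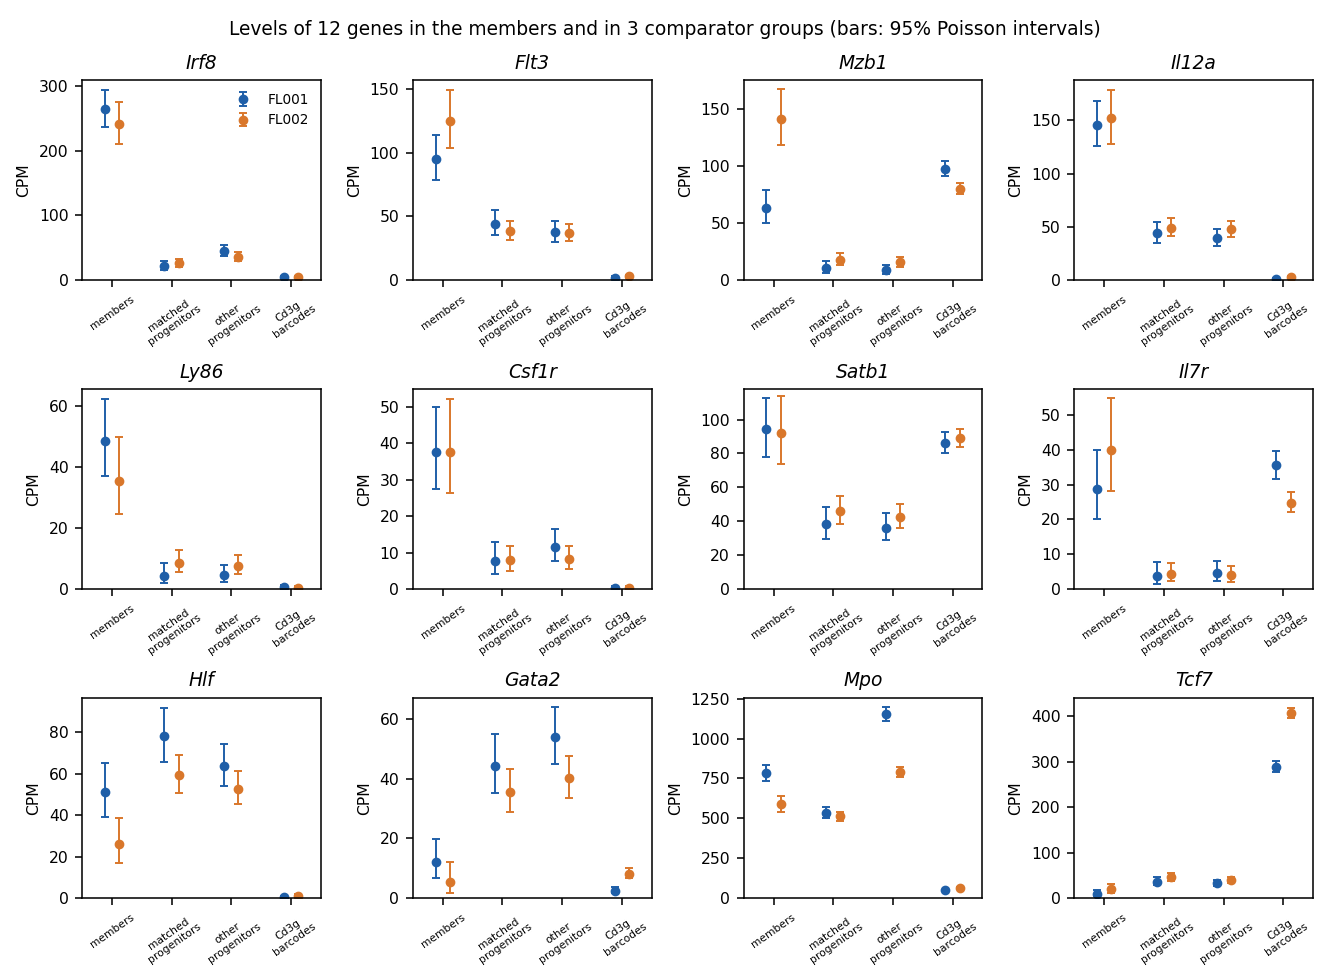
Levels in CPM (linear axes from 0) of 12 genes in the IEC progenitors (members), the matched progenitors, the other progenitors and the *Cd3g* barcodes, with blue points for FL001, orange points for FL002 and bars for 95% Poisson intervals. *Irf8* stands at 264 and 241 CPM in the IEC progenitors and at no more than 45.3 CPM in the groups beside them.

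A gene was called when it was at least 2-fold higher, or lower, in both libraries after 20 CPM were added to each level, among genes whose mean over the compared groups was at least 20 CPM in each library. The IEC progenitors were selected on the same counts, so the calls describe the selected barcodes and are no tests. A gene under 20 CPM in one group passed this minimum only through a higher level in the other. This held for *Ly86* and *Mzb1*, low in the other progenitors, and for *Gata2*, low in the IEC progenitors. Medians over gene lists cover only the genes that passed, so the minimum helped to set them and the calls. Against the other progenitors, 8 of 5211 genes were higher (0.154%) and 9 were lower (0.173%). The 8 higher genes were *Irf8*, *Mzb1*, *Il12a*, *Lsp1*, *Pld4*, *Ccl3*, *Hspa1a* and *Ly86*, and the lower genes included *S100a9*, *Apoe*, *Gng11*, *Serpina3g*, *Gata2*, *Cd63*, *Rab38* and *Vamp5*. Because the other progenitors include barcodes over the limits on myeloid and megakaryocyte genes, the comparison was repeated with the 240 and 500 matched progenitors, which met every condition except the sum. Against these, 11 of 5196 genes were higher (0.212%) and 7 were lower (0.135%), and 7 of the 8 higher genes but 4 of the 9 lower ones were called again.

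**Figure D2:**
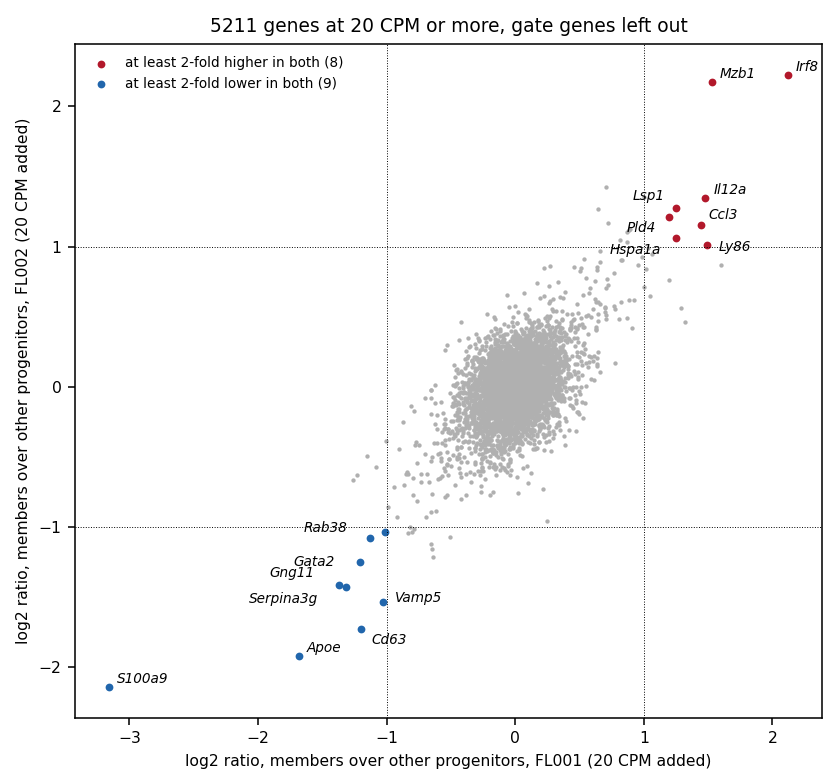
Log2 ratio of each of 5211 genes between the IEC progenitors (members) and the other progenitors, FL001 on the horizontal and FL002 on the vertical axis, with 20 CPM added to both levels. Red points are the 8 higher and blue points the 9 lower genes, not all of them labelled, dotted lines mark 2-fold, and *Irf8* lies farthest out on the higher side at 2.12 and 2.23.

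*Irf8*, a transcription factor needed for dendritic cells and monocytes, had the highest ratio. It was at 264 CPM in FL001 (236 to 294) and 241 CPM in FL002 (211 to 274), against 45.3 and 35.8 CPM in the other and 21.8 and 26.1 CPM in the matched progenitors. Droplets with 1 to 100 UMIs carried 18.7 and 19.6 CPM of *Irf8*, close to the level in the matched progenitors. The log2 ratio was 2.12 and 2.23 against the other progenitors and 2.76 and 2.50 against the matched ones. With the rule applied to counts thinned to 1500 UMIs, which 6 barcodes met in FL001, the ratio there turned to -0.40. Under the same setting the ratios of *Ly86* in both libraries, of *Ccl3* in FL001 and of *Lsp1*, *Pld4* and *Serpina3g* in FL002 also changed sign. An *Irf8* UMI was found in 40.8% and 36.9% of the IEC progenitors, against 15.1% and 10.6% of the other progenitors and 3.13% and 2.06% of the *Cd3g* barcodes. A barcode without a UMI is not shown to lack the transcript, so these shares do not say how many barcodes expressed *Irf8*. With the IEC progenitors chosen on the full counts and only the shares thinned, the shares were 23.8% and 20.8% against 5.37% and 4.35%. The barcode with the most held 27 of 331 UMIs in FL001 and 17 of 230 in FL002.

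Other genes called higher were *Mzb1*, *Pld4* and *Lsp1*. *Mzb1*, a chaperone of the secretory pathway, was at 63.8 and 142 CPM against 8.97 and 15.8 CPM in the other progenitors. In the *Cd3g* barcodes it was at 97.7 and 80.4 CPM, and its annotated exons overlap those of *Spata24*. *Pld4*, an endolysosomal nuclease, was at 72.6 and 71.3 CPM against 20.4 and 19.4 CPM, and *Lsp1*, an actin-binding protein of leukocytes, at 496 and 578 CPM against 197 and 227 CPM. Both were also carried by the *Cd3g* barcodes, *Pld4* at 56.6 and 54.9 CPM and *Lsp1* at 272 and 249.6 CPM. *Cox6a2*, a cytochrome oxidase subunit that plasmacytoid dendritic cells also express, was under the minimum mean level in FL001 and so was not tested, and stood at 31.9 and 51.4 CPM against 2.45 and 3.03 CPM. *Bst2*, a surface marker of plasmacytoid dendritic cells, was at 39.1 and 93.3 CPM against 44.0 and 92.3 CPM in the other progenitors, and was called lower than in all other kept barcodes (109 and 229 CPM). Defining genes of mature dendritic cells were scarce, with 6 and 10 UMIs of *Siglech*, 0 and 0 of *Xcr1* and 0 and 0 of *Clec9a*.

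Single genes known from monocytes were also called, although the myeloid list as a whole gave 1 higher and 1 lower gene among 8 that passed the minimum level against the other progenitors (0.154% and 0.173% of all genes tested). *Ly86*, a partner of a Toll-like receptor homologue, was at 48.7 CPM (37.2 to 62.5) and 35.6 CPM (24.7 to 49.8), against 4.49 and 7.59 CPM in the other progenitors. Against the matched progenitors (4.36 and 8.59 CPM) it was not called, since its log2 ratio of 0.96 in FL002 missed 2-fold. *Csf1r*, the receptor for macrophage colony-stimulating factor, was at 37.5 and 37.7 CPM against 11.4 and 8.19 CPM, and was called against the matched progenitors with log2 ratios of 1.06 and 1.05. *Clec12a*, an inhibitory lectin of myeloid cells, was called against the matched progenitors only, at 81.4 and 62.9 CPM against 16.4 and 14.0 CPM. The *Cd3g* barcodes held 84.2 and 55.2 CPM of *Clec12a*, so this gene too was shared with T-lineage cells. *Tifab*, called in the same comparison, was at 41.5 and 35.6 CPM against 3.27 and 6.44 CPM. *Mpo*, for the granule enzyme myeloperoxidase, was at 784 and 589 CPM, above the matched progenitors (534 and 512 CPM) and below the other progenitors, some of which passed the myeloid limit (1153 and 791 CPM).

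The cytokine genes *Il12a* and *Ccl3* were also higher. *Il12a*, the p35 subunit of interleukin 12, was at 146 CPM in FL001 (126 to 169) and 152 CPM in FL002 (128 to 179), against 39.6 and 47.6 CPM in the other progenitors and 1.25 and 2.69 CPM in the *Cd3g* barcodes. A UMI was found in 59.2% and 50.3% of the IEC progenitors, and the barcode with the most held 6 UMIs in FL001 and 6 in FL002. *Ccl3*, an inflammatory chemokine, was at 136 and 149.9 CPM against 37.5 and 56.4 CPM.

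*Hspa1a*, a heat shock gene with a near-identical copy, *Hspa1b*, whose reads may have been split between them, differed more between the libraries than between the groups. The IEC progenitors had 84.6 and 570.4 CPM and the other progenitors 24.1 and 263 CPM. In FL001 a single barcode held 20.8% of its UMIs, and without that barcode the level was 67.7 CPM. The summed level of *Hspa1a*, *Fos*, *Jun*, *Klf2* and *Klf6*, genes known to respond to stress and tissue dissociation, was 1646 and 3461 CPM in the IEC progenitors, 1104 and 2615 CPM in the other progenitors and 136 and 306 CPM in the *Cd3g* barcodes. The part of handling in these levels was not tested.

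The genes called lower were of mixed kinds. *Gata2*, a transcription factor of stem cells and of the megakaryocyte and mast cell branches, was at 11.97 CPM (6.70 to 19.7) and 5.24 CPM (1.70 to 12.2), against 53.8 and 40.1 CPM in the other and 44.2 and 35.4 CPM in the matched progenitors. *Apoe*, an apolipoprotein, was at 64.6 and 29.4 CPM against 252 and 166 CPM in the other progenitors and 230.1 and 136 CPM in the matched ones. *Vamp5*, a vesicle membrane protein, was at 109 and 68.1 CPM against 243 and 235 CPM, and *Serpina3g*, a protease inhibitor, at 26.3 and 19.9 CPM against 95.4 and 87.4 CPM. These 4 genes were called with both comparators. *S100a9*, *Gng11*, *Cd63* and *Rab38* were called against the other progenitors only. For *S100a9*, a granulocyte gene, the matched progenitors were at 2.73 and 0.358 CPM and the IEC progenitors at 3.99 and 1.05 CPM, whereas the other progenitors were at 194 and 72.8 CPM. *Gzma* and *Angpt1* were called against the matched progenitors only, with *Angpt1*, the ligand of the receptor Tie2, at 43.1 and 29.4 CPM against 107 and 79.8 CPM.

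Of 21 stem cell genes, 12 passed the minimum level against the other progenitors, 0 were higher and 2 were lower, *Gata2* among them, where 0.154% of all genes tested were higher and 0.173% lower. Their median log2 ratio was -0.52 and -0.38, against 0.0015 and -0.0018 over all genes tested. *Hlf*, a stem cell transcription factor, was at 51.1 and 26.2 CPM against 63.6 and 52.8 CPM. *Cd34*, a surface protein of progenitors, stood at 309.6 and 299 CPM against 241 and 252 CPM, and the homeobox gene *Hoxa9* at 90.2 and 92.3 CPM against 74.2 and 90.1 CPM, so the list did not move as one.

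Of 20 lymphoid priming genes, 11 passed the minimum level, 1 was higher (*Irf8*) and 0 were lower, beside the same 0.154% and 0.173% of all genes tested, with medians of 0.53 and 0.59. *Flt3* reached 2-fold in FL002 and missed it narrowly in FL001. *Satb1*, a chromatin organiser of lymphoid progenitors, was at 94.2 and 92.3 CPM against 36.3 and 42.8 CPM, and *Bcl11a*, needed for B-cell and plasmacytoid dendritic cell development, at 175 and 204 CPM against 115 and 123 CPM. *Ikzf1*, which encodes Ikaros, was at 141 and 136 CPM against 82.0 and 83.8 CPM. Of 18 dendritic cell genes 5 passed, 1 was higher (*Irf8* again) and 0 were lower, beside the same shares, with medians of 0.72 and 0.60. The dendritic cell factors *Tcf4*, at 148 and 124 CPM against 74.6 and 74.7 CPM, and *Runx2*, at 41.5 and 38.8 CPM against 21.6 and 21.2 CPM, were not called.

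Among the 18 myeloid genes, the one higher was *Ly86* and the one lower *S100a9*. Over the 8 that passed against the other progenitors the median was -0.20 and -0.14. Over the 7 that passed against the matched progenitors it was 0.87 and 0.32. The direction differed between the comparators, and so did the genes that passed. Among 6 genes of the E proteins, which activate lymphoid genes, and the Id proteins, which block them, 0 were called. Of all genes tested, 0.154% were higher and 0.173% lower. *Id2* was at 169 and 109 CPM against 42.4 and 50.7 CPM, from 43 and 38 barcodes, and *Id3* at 83.8 and 139 CPM against 36.7 and 54.0 CPM, from 22 and 23 barcodes. Of 6 fetal program genes 5 passed and 0 were called, beside the same shares of all genes tested. *Hmga2*, a chromatin protein of fetal stem cells, was at 531 and 471 CPM against 295 and 331 CPM.

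Genes of cell division gave no calls against the other progenitors, where 0.154% of all genes tested were higher and 0.173% lower. All 12 DNA replication genes passed the minimum level with medians of 0.03 and -0.06, and all 12 mitosis genes passed with medians of 0.30 and 0.26. Over all genes tested the median was 0.0015 and -0.0018. Against the other progenitors, the 13 cytokine receptors gave 0 calls among 7 genes that passed, and the 12 integrins and homing receptors 0 among 6. With the same shares of all genes called, such short lists would be expected to give few or no calls. Macrophage and hepatocyte genes were scarce in the IEC progenitors, with summed levels of 1.60 and 1.05 CPM for 7 macrophage genes and 3.99 and 6.29 CPM for 5 hepatocyte genes. The 13 megakaryocyte and erythroid genes summed to 15.96 and 9.44 CPM, held down in part by the rule, and the 6 mast cell and basophil genes to 5.59 and 15.7 CPM. Among 14 innate lymphoid and NK cell genes 3 passed and 0 were called, beside the same shares, and 5 and 7 had no UMI in the IEC progenitors. Their summed level was 340 and 294 CPM, against 323 and 289 CPM in the other progenitors.

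T-lineage genes were low in the IEC progenitors. Against all other kept barcodes, 41 of 5226 genes were higher (0.785%) and 84 were lower (1.61%), and 15 of 20 T-lineage and Notch genes were among the lower ones, a contrast that the *Cd3g* condition helped to set. *Tcf7* was at 9.57 and 18.9 CPM, against 289 and 407 CPM in the *Cd3g* barcodes and 32.6 and 39.8 CPM in the other progenitors. *Bcl11b*, the T-cell commitment factor, had 0 and 0 UMIs, which allows up to 2.39 and 3.15 CPM, against 56.3 and 39.9 CPM in the *Cd3g* barcodes. *Notch1*, a receptor for DL4, was at 95.7 and 112 CPM, between the other progenitors (54.6 and 53.1 CPM) and the *Cd3g* barcodes (180.0 and 182 CPM). The Notch target *Nrarp* was at 23.9 and 32.5 CPM against 55.1 and 48.9 CPM in the other progenitors. In that comparison 8 of the 20 genes passed the minimum level and 0 were called, beside 0.154% higher and 0.173% lower among all genes tested.

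*Trbc2*, a constant region of the T-cell receptor β chain, was abundant all the same. It was at 561 CPM in FL001 (520.2 to 604) and 625 CPM in FL002 (576 to 677), beside 516 and 547 CPM in the other progenitors, and had a UMI in 57.7% and 67.1% of the IEC progenitors. The ratio of *Trbc1* to *Trbc2* UMIs was 0.0640 and 0.0688 there, against 0.270 and 0.245 in the *Cd3g* barcodes and 0.365 and 0.283 in droplets of 1 to 100 UMIs. The other progenitors had 0.117 and 0.107 and the matched progenitors 0.124 and 0.103, between the IEC progenitors and the droplets, and the part of free RNA was not tested. The copies are near-identical, and reads may have been split between them. *Gzma*, at 3922 and 2141.2 CPM in those droplets, was at 62.2 and 84.9 CPM in the IEC progenitors.

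Levels were also laid out along the sum that chose the IEC progenitors, as a description of the selection. Among progenitors within the myeloid and megakaryocyte limits, *Flt3* was at 42.8 CPM for a sum of 0, 46.9 CPM for 1, 81.9 CPM for 2, 66.0 CPM for 3 to 4 and 125 CPM for 5 or more in FL001. In FL002 the same classes gave 31.1, 58.2, 79.9, 119 and 208 CPM of *Flt3*. *Irf8* was at 14.8, 35.5, 178, 158 and 399.6 CPM in FL001 and 19.3, 44.0, 211, 302 and 181 CPM in FL002, so it stepped up between 1 and 2, at the border of the rule, and the libraries differed in the last class. *Il7r* was at 0.823, 9.69, 5.65, 7.92 and 59.6 CPM in FL001 and 2.97, 7.76, 17.1, 38.8 and 78.7 CPM in FL002, and in FL001 31 of the 36 UMIs in the IEC progenitors lay in the last class. *Igll1*, which encodes λ5 of the surrogate light chain, had 0 and 0 UMIs for a sum of 2, 0 and 0 for 3 to 4 and 32 and 31 for 5 or more. *Hlf* was at 80.6, 72.7, 65.0, 97.7 and 7.68 CPM in FL001 and 58.8, 60.8, 45.6, 23.3 and 0 CPM in FL002, lowest in the last class of each. The median depth went from 6776.5 and 5221.5 UMIs at 0 to 9884.5 and 6870 UMIs at 5 or more, and its part was not tested.

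**Figure D3:**
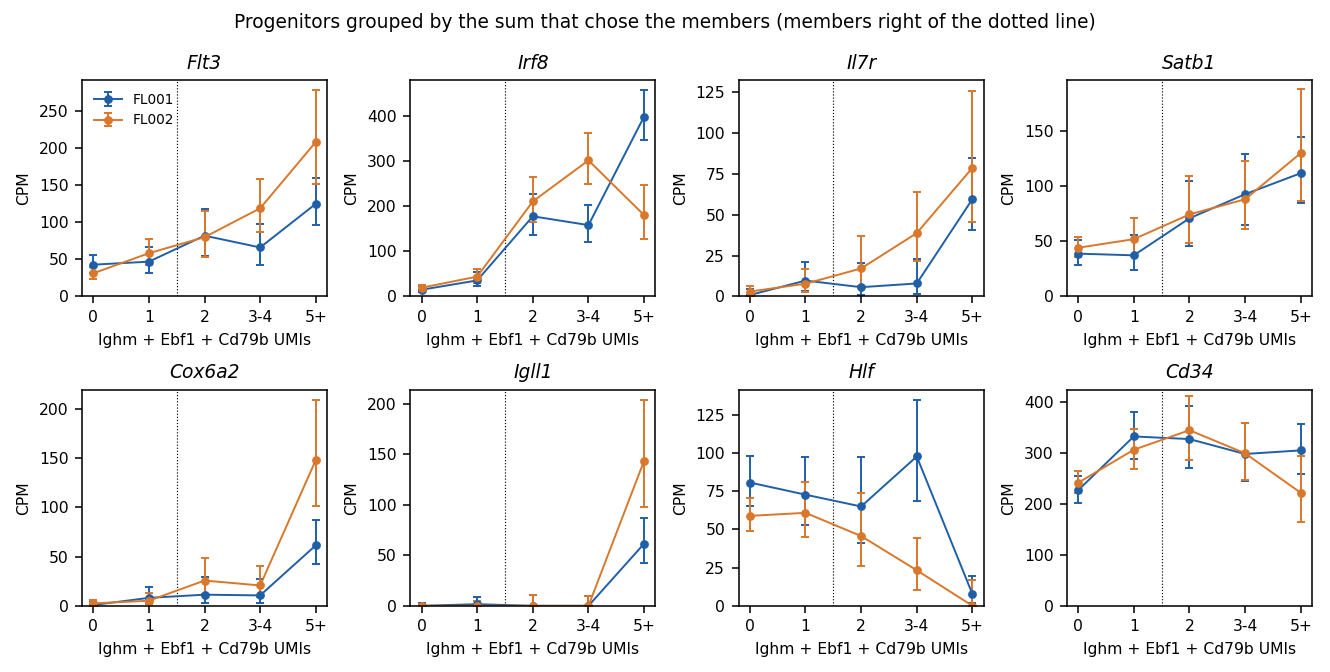
Levels in CPM of 8 genes in progenitors within the myeloid and megakaryocyte limits, grouped by their summed *Ighm*, *Ebf1* and *Cd79b* UMIs, for FL001 (blue) and FL002 (orange) with 95% Poisson intervals and the border of the rule as a dotted line. *Flt3* is higher at 5 or more UMIs than at 0 in both libraries, at 125 and 208 CPM against 42.8 and 31.1 CPM.

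In the IEC progenitors, 5 low genes of the B lineage had most of their UMIs in very few barcodes. Of 30 B-lineage genes, 5 passed the minimum level and 0 were called against the other progenitors, beside 0.154% and 0.173% of all genes tested. The summed level of the 30 was 410 and 456 CPM, against 255 and 234 CPM in the other progenitors. Among the low genes, *Cd79a* (the partner of *Cd79b*), *Vpreb1*, *Vpreb3* and *Igll1* (of the surrogate light chain family) and *Pax5* (the B-lineage commitment factor) together gave 90 and 88 UMIs in the IEC progenitors. At least 1 of these 5 genes was found in 9 and 14 IEC progenitors (6.92% and 9.40%) and in 79 and 132 of all other kept barcodes (4.76% and 3.34%). Only 3 IEC progenitors in FL001 and 4 in FL002 had at least 3 of the 5 genes, and they held 87.8% and 84.1% of the 90 and 88 UMIs. Among all other kept barcodes 0 of 1658 and 0 of 3951 had at least 3 of the 5. The 5 genes were chosen after their values were seen, and the rule itself used B-lineage genes, so the selection helped to set this contrast.

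All 7 of these barcodes had *Ebf1*, with 5, 8 and 29 UMIs in FL001 and 6, 3, 7 and 4 UMIs in FL002. *Igll1* reached 23 UMIs in 1 barcode of FL001, which was 71.9% of the gene's UMIs in the IEC progenitors of that library, and 17 UMIs in 1 barcode of FL002, or 54.8%. *Lmo2* was at 0 or 1 UMI in each of the 7, so *Mef2c*, which B-lineage cells also express, carried them over the progenitor condition. *Irf8* had 1 UMI in 1 of them and 0 in the other 6. Without the 7 barcodes *Igll1* was at 0.816 and 0 CPM and *Vpreb1* at 1.63 and 6.43 CPM, while *Flt3* was at 96.3 and 125 CPM and *Irf8* at 270.2 and 245 CPM. *Vpreb1* has a near-identical copy, *Vpreb2*, with 3 and 3 UMIs in the IEC progenitors, and reads may have been split between them.

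The windows upstream of *Cd79a* and *Igll1* are shown because both genes appeared together with *Ebf1* in the same barcodes. They are the 250 bases before each gene's start in RefSeq, build GRCm38.p6, on the gene's strand, at chr7:24897247-24897496 (plus strand) for *Cd79a* and chr16:16863986-16864235 (minus strand) for *Igll1*. Capitals mark CCCNNGGG, a core of the motif known for EBF1, searched on both strands, on which it reads alike. The core was found once upstream of *Igll1*, in none of the windows of *Cd79a*, *Vpreb1* and *Vpreb3*, and in 11.8% of 32851 windows of this length. A match is a match of letters. No match says only that these exact letters are not in this window, not that a binding site of EBF1 is absent.
Cd79a: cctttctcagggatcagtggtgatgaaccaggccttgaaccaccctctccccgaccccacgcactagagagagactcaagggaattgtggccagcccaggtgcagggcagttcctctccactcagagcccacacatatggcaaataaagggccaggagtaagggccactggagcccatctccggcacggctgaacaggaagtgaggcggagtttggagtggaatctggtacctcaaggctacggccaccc
Igll1: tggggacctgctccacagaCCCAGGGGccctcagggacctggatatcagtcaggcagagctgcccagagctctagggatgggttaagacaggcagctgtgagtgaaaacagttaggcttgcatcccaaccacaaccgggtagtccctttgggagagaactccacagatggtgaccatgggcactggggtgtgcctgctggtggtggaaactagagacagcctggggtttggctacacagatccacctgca

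The IEC progenitors were described further by *Ebf1*, *Irf8* and *Cd79b*. *Ebf1* and *Cd79b* are genes of the rule and the parts overlap, so these values describe the selected barcodes and no difference between parts was tested. Those with an *Ebf1* UMI numbered 18 and 23. *Il7r* was found in 55.6% and 21.7% of them, against 11.6% and 15.1% of the others, a wide gap in FL001 and a narrow one in FL002. *Irf8* was found in 33.3% and 26.1% of the barcodes with *Ebf1* and 42.0% and 38.9% of those without it, and 6 barcodes of each library held both. Its level was 159 and 46.7 CPM with *Ebf1* and 279.9 and 271 CPM without it, and the thinned shares were 5.56% and 8.70% against 26.8% and 23.0%. *Cox6a2* was at 73.3 and 156 CPM with *Ebf1* and 25.7 and 35.1 CPM without it. *Rag1*, of the recombinase that joins receptor gene segments, had 6 and 7 UMIs with *Ebf1* and 2 and 3 without it, but the 7 barcodes with several B-lineage genes held 5 and 3 of those with *Ebf1*, 4 of them in a single barcode of FL001.

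*Csf1r* and *Id2* had few UMIs where *Ebf1* was found. *Csf1r* had a UMI in 1 and 0 barcodes with *Ebf1* and in 26 and 28 without it, or 5.56% and 0% against 23.2% and 22.2%. After thinning its shares were 0% and 0% against 3.57% and 2.38%, too few barcodes to read a difference from, and its level was 6.11 and 0 CPM against 42.2 and 43.6 CPM. *Id2* had 0 and 2 UMIs with *Ebf1* and 212 and 102 without it. *Prtn3*, the granule gene for proteinase 3, was found in 55.6% and 17.4% with *Ebf1* and 67.9% and 49.2% without it. Its level was 452 and 38.9 CPM with *Ebf1* and 421 and 323 CPM without it, within each other's counting error in FL001 and lower with *Ebf1* in FL002, and the thinned shares were 27.8% and 4.35% against 37.5% and 30.2%. The median depth was 7634.5 and 5492 UMIs with *Ebf1* and 9344 and 6167.5 without it.

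**Figure D4:**
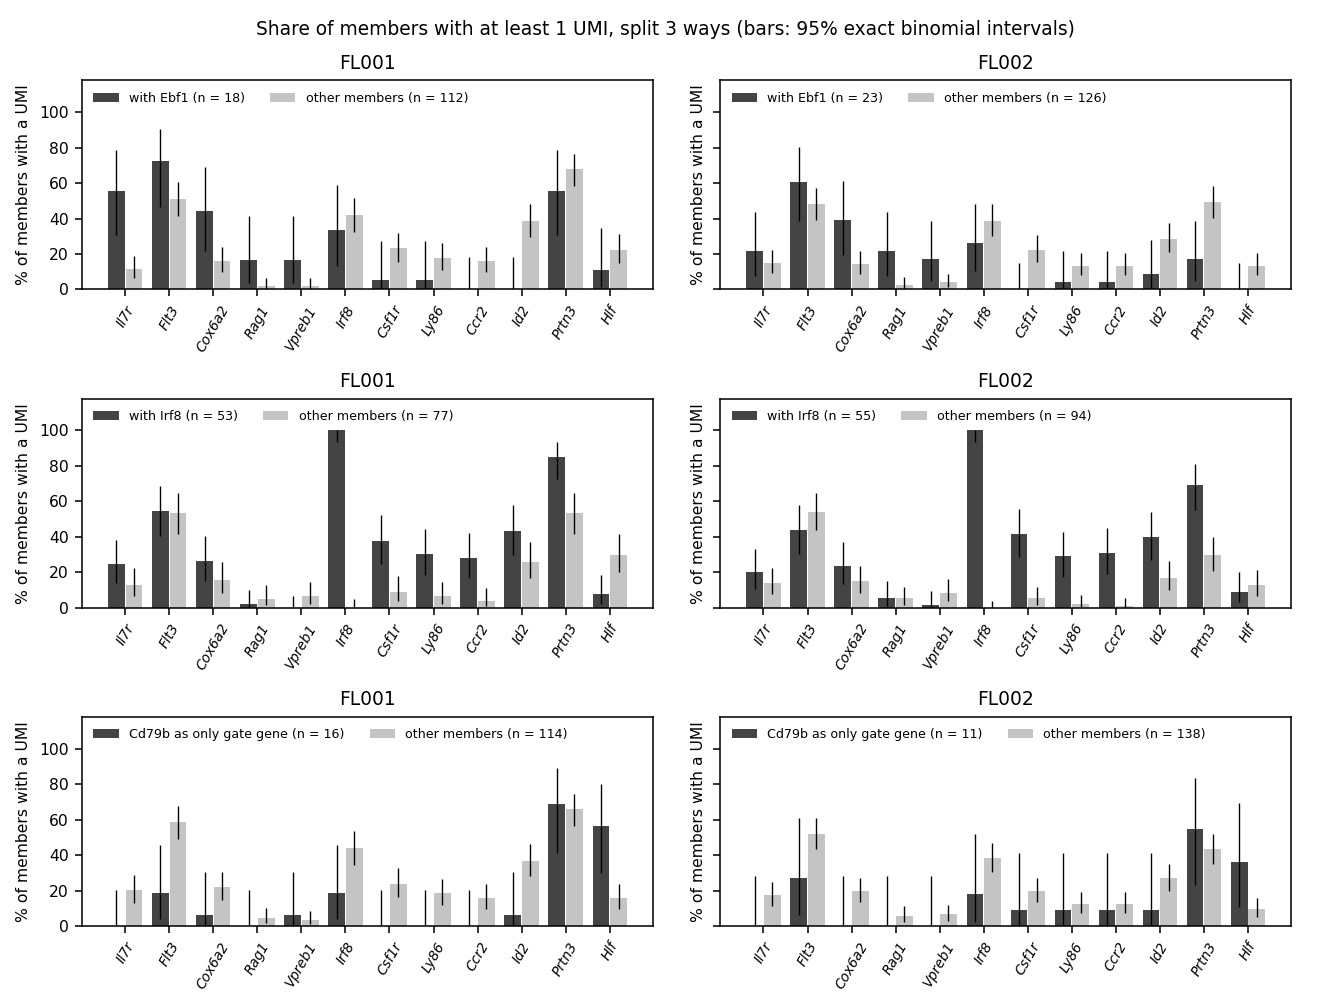
Percent of IEC progenitors with at least 1 UMI of each named gene, split by *Ebf1* (top), *Irf8* (middle) and *Cd79b* as the only one of the 3 selecting genes (bottom), for FL001 (left) and FL002 (right), dark bars with and light bars without, and 95% exact binomial intervals. *Csf1r* stands at 37.7% and 41.8% with *Irf8* against 9.09% and 5.32% without it.

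The barcodes with *Irf8*, 53 and 55 in number, held most of the barcodes with *Csf1r*, *Ly86* and *Ccr2*. *Csf1r* was found in 37.7% and 41.8% of them, against 9.09% and 5.32% of the others. *Ly86* was found in 30.2% and 29.1% against 6.49% and 2.13%, and *Ccr2*, the chemokine receptor of monocytes, in 28.3% and 30.9% against 3.90% and 1.06%. *Prtn3* was at 741 and 549.9 CPM with *Irf8* and 147 and 101 CPM without it. Depth differed here too, with medians of 10769 and 6707 UMIs with *Irf8* and 7923 and 5726.5 without it. After thinning to 1500 UMIs, *Prtn3* was found in 54.7% and 49.1% against 23.4% and 12.8% and *Csf1r* in 3.77% and 3.64% against 2.60% and 1.06%. *Flt3* differed less, at 54.7% and 43.6% of barcodes with *Irf8* and 53.2% and 54.3% without it. *Ccr9* was found in 2 and 1 barcodes with *Irf8* and in 7 and 17 without it.

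The 16 and 11 barcodes with *Cd79b* as the only one of the 3 selecting genes are few, and they are defined by how the rule was met. *Hlf* was found in 56.2% and 36.4% of them and 15.8% and 9.42% of the other IEC progenitors, and after thinning in 6.25% and 9.09% against 3.51% and 1.45%. *Flt3* was found in 18.8% and 27.3% of them against 58.8% and 52.2%, and *Il7r* and *Ccr9* had 0 UMIs in them in both libraries. The 44 and 68 barcodes with *Ighm* alone had *Flt3* in 52.3% and 57.4% and *Irf8* in 40.9% and 44.1% of barcodes.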

How the data were processed

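Single-cell RNA sequencing libraries FL001 and FL002 were made by the authors with 10X Chromium 3′ chemistry, sequenced on an Illumina NextSeq and processed with CellRanger. The deposited values were raw UMI counts per gene and barcode for 28692 genes, not normalized and not filtered for cells. The submitters' processing notes name build mm9, although 98.8% of the gene identifiers were found in GENCODE M21 of GRCm38, so no coordinates were taken from the files. The members, gene lists and comparisons were chosen with earlier results of these data known.

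Counts were read with Python 3.11.15. Levels were UMIs summed over barcodes, in CPM, with exact Poisson intervals, and shares had exact binomial (Clopper-Pearson) intervals, both at 95%. PCR duplicates were removed by UMI, and both intervals cover counting error only. Floors were set at 3 counts. Kept barcodes held 1559 to 27025 UMIs (FL001) or 1510 to 17589 (FL002). Ratios were log2 with 20 CPM added. Genes were named from the lists, mainly those with the highest level in the members or the largest ratio, and, for each comparator, from the 10 largest and 10 smallest ratios among the calls. The 5 B-lineage genes counted as a set and the summed stress genes were chosen after their values were seen. Scrublet in scanpy 1.11.5 marked 0.391% and 0.0244% of barcodes, under 0.5%, so its calls were not used. No doublets were removed, and the 5% with the highest scores were left out in an alternative. Some genes that the rule would name are not reported here.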

Additional observations from a re-analysis of the deposited data

How the results depend on the processing

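No paired test was run, and no result comes from a test. The labels give 2 libraries with 1 sample each, and every group of barcodes was compared within each library. The shares of IEC progenitors among kept barcodes, 7.27% in FL001 and 3.63% in FL002, became 0.336% and 0.195% when counts were thinned to 1500 UMIs before the rule, 5.03% and 2.17% with a sum of at least 3, and 11.3% and 6.85% with a sum of at least 1. They stayed within their intervals with a minimum of 3000 UMIs, at most 5% mitochondrial UMIs, without the 5% highest doublet scores or without barcodes kept in both libraries. Against the other progenitors, the 8 higher and 9 lower genes became 20 and 34 after thinning (2 and 3 of them shared), 13 and 16 at a sum of at least 3, 5 and 3 at a sum of at least 1, 23 and 16 with 5 CPM added, 3 and 2 with 50 CPM added, and 5 and 4 with a minimum mean level of 50 CPM. With 1 library alone they ran from 20 to 21 higher and from 17 to 18 lower, and against the matched progenitors, a comparator added after the data were seen, they were 11 and 7. Against all other kept barcodes, the 41 higher genes became 67 with 5 CPM added and 21 with 50 CPM, and the 84 lower genes became 45 with 50 CPM added and 50 with the minimum of 50 CPM. With the rule on thinned counts, met by 6 and 8 barcodes, the log2 ratios of called genes that changed sign were those of *Ccl3* (-0.18), *Irf8* (-0.40) and *Ly86* (-1.10) in FL001 and of *Ly86* (-0.87), *Lsp1* (-0.28), *Pld4* (-0.33) and *Serpina3g* (0.031) in FL002. With matched progenitors, *S100a9* changed sign (0.078 and 0.048). The cause of these changes was not tested, and few barcodes met the rule after thinning. Over 115 named genes in each library, 2108 of 2530 alternative log2 ratios stayed within the counting interval of the main value, but with the rule on thinned counts 51 of 230 did, 172 moved and 7 changed sign.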
